A study of Homo sapiens with 2 samples.

Results

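The 6 names described here are GPI, PFKM, GAPDH, ENO1 and PKM, which are enzymes of glycolysis, and BSG, also called basigin or CD147, the membrane partner of lactate transporters. They were taken from the deposited tables by name, as every transcript row called by one of these symbols that carried a number. This gave 6 of the 9253 names with a value and 30 of the 18663 transcript rows with a value. The rows were picked by name, but the names were chosen with earlier results of these data known. In the library without glutamine the 5 enzymes have the highest values of the glycolytic names looked up. BSG has the highest of the lactate names looked up. High values and ranks of the 6 names in that library are thus no independent finding.

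The RNA came from 95D, a human lung cancer cell line labelled wild type, as 1 library for each of 2 conditions. In both, cells were given 24 h in complete medium and then 48 h in DMEM with 10% dialyzed fetal bovine serum, lacking glucose in the first library and glutamine in the second. They are called the glucose-free and the glutamine-free library below. No library of cells in complete medium was analysed here. Total RNA was depleted of ribosomal RNA and sequenced in paired ends. The title of the series and its design text describe RNA pulled down with the m6A demethylase ALKBH5, set against input RNA. The labels of neither sample mark its library as pull-down or input, and both samples' descriptions point to 1 column name, that of glucose deficiency. Binding to ALKBH5 was therefore not analysed. With 1 library per condition there is no replicate error, no test was possible, and every interval below covers counting error alone.

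Glycolysis splits glucose into pyruvate and yields ATP and NADH on the way. Pyruvate can then enter mitochondria or be reduced to lactate, which leaves the cell through monocarboxylate transporters, and many tumour cells export much of their glucose carbon in this way. GPI turns glucose 6-phosphate into fructose 6-phosphate, PFKM is the muscle-type subunit of the committing kinase, GAPDH makes NADH, ENO1 forms phosphoenolpyruvate and PKM makes pyruvate and ATP. BSG is an immunoglobulin-family glycoprotein that carries the lactate transporters encoded by SLC16A1 and SLC16A3 to the cell surface.

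The files head their rows as long non-coding RNA names and give no transcript identifiers. RefSeq, in assembly GRCh38.p14, lists all 6 symbols as protein-coding genes. ENO1 lies on chromosome 1 from 8861000 to 8878686, GAPDH on chromosome 12 from 6534517 to 6538371, and PFKM on chromosome 12 from 48105353 to 48146404. PKM lies on chromosome 15 from 72199029 to 72231591, BSG on chromosome 19 from 571283 to 583493, and GPI on chromosome 19 from 34359718 to 34402413. Where within these genes a row lies, in exon, intron or UTR, is not given, so no row is read as a messenger RNA level. RefSeq also holds 65 pseudogene symbols built on GAPDH, 5 on PKM and 4 on ENO1. None of them names a row of the files, and reads from such copies cannot be told apart from those of the parent gene here.

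The libraries differed greatly in what they listed, and this bears on every result below. Low values were multiples of a fixed step, 1.26 without glucose and 0.791 without glutamine, apart from a small offset. From these steps 42827 and 1442570 whole reads were recovered over the listed rows. In the glucose-free library 474 of the 18663 rows, or 2.54%, stood above 0, against 99.5% in the other. By name these shares were 4.25% (393 of 9253) and 99.5%. Recovered reads were 33.7 times as many in the glutamine-free library, while the steps differed 1.60-fold. Names above 0 in the glucose-free library had a median of 81 reads there. Listed reads thus moved with the condition and need not equal sequencing depth, and their part in the results was not tested. In bulk RNA, fewer cells of a type and less RNA per cell cannot be told apart. Of 9 lung epithelial markers 5 had a value, summing to 360 in the glucose-free and 289 in the glutamine-free library, where KRT8 stood at 199.8 and 143, NAPSA at 161 and 18.9, KRT18 at 0 and 75.1, KRT19 at 0 and 42.6 and KRT7 at 0 and 9.47. EPCAM, CDH1, NKX2-1 and SFTPB had no value. Of 10 markers of immune, endothelial, fibroblast and liver cells, ALB was the 1 with a value, at 0 and 1.56.

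All 6 names were present in the glutamine-free library, while for 5 of them the glucose-free library listed 0. Of all names, 99.5% were above 0 in the former and 4.25% in the latter. All 9253 names reached a value of 1 in at least 1 library. A name at 0 in the glucose-free library thus had to be above 0 in the other. The values were 0 and 416 for GPI in the glucose-free and glutamine-free library. For PFKM they were 0 and 405. GAPDH, used as a reference gene in many assays, was listed at 0 and 810.0. These enzymes of the upper and middle pathway thus had no listed read in cells without glucose. ENO1 stood at 0 and 437. PKM, at the last step of glycolysis, stood at 2.55 and 1101, and was the only name of the 6 above 0 in both. BSG was listed at 0 and at 1311.

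On the log2(value + 1) scale the difference of the glutamine-free minus the glucose-free library ran from 8.28 for PKM to 10.36 for BSG, with a median of 8.74. The median over all 9253 names was 4.32. With each library rescaled to a sum of 1000000 these medians were 8.55 and 4.14. For PKM, the only name of the 6 measured in both libraries, rescaling took the difference from 8.28 to 4.33. The median of all names is no measured reference for PKM, since only 4.25% of names were above 0 in the glucose-free library. All 6 names passed 2-fold toward the glutamine-free library, as did 97.4% of all names, so the count by itself does not set the 6 apart. The count was again 6 with each library rescaled, against 96.0% of all names, and with ratios centred on their median, against 31.5%. For the 5 names listed at 0 the difference is set by their value in the glutamine-free library and by the pseudocount, also after centring. For these 5 the centred count thus says only that their values in the glutamine-free library were high. In the opposite direction, toward the glucose-free library, 1.42% of all names and none of these 6 passed 2-fold.

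**Figure D1:**
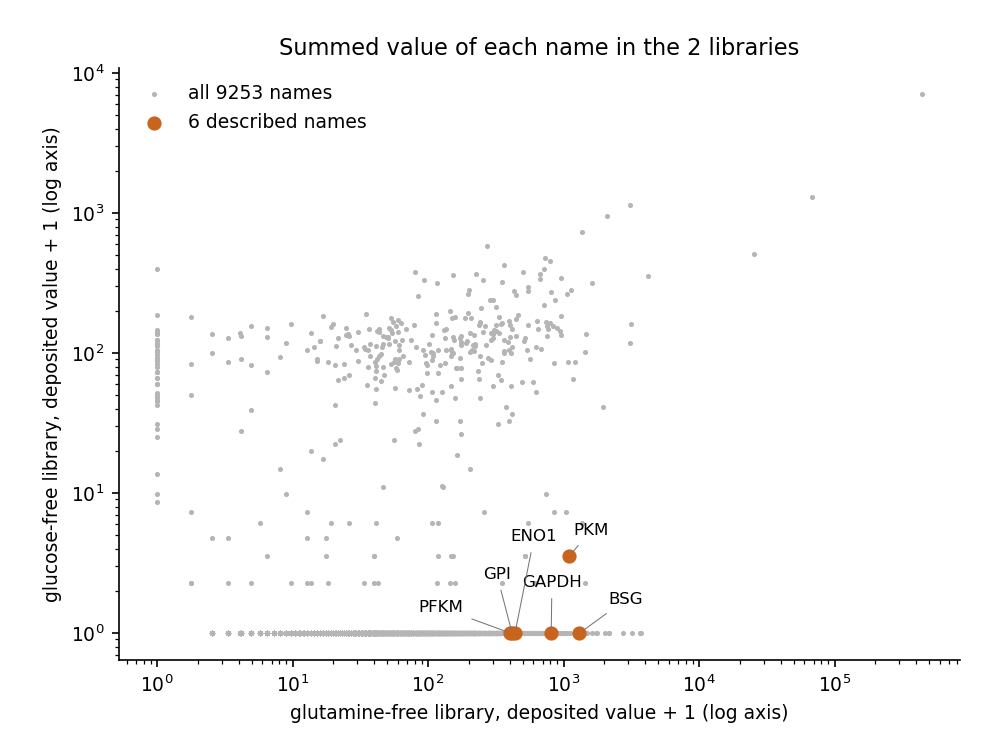
Deposited value plus 1 of each name, summed over its transcript rows, in the glutamine-free (horizontal) and the glucose-free library (vertical), both on log axes, with 1 grey point per name and the 6 described names in orange. GPI, PFKM, ENO1, GAPDH and BSG lie on the line of names listed at 0 in the glucose-free library and PKM lies just above it at 2.55, while the 393 names above 0 there have a median value of 102.

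Above-0 status in the glucose-free library was then set beside names of like value. The values of the 6 names in the glutamine-free library ran from 405 to 1311, a range that held 196 names with these 6 included. Of those 196, 58 names, or 29.6%, were above 0 in the glucose-free library, and 54, or 27.6%, had more than 2 recovered reads there. Of the 6 names 1 was above 0, PKM, and none had more than 2 reads. With 6 names, counts this small do not separate them from others in the range. Had the 6 names held the same share of listed reads in the glucose-free library as in the other, they would have had 168 reads there, where 2 were listed. By name this would be 49.2 reads for BSG, 41.3 for PKM, 30.4 for GAPDH, 16.4 for ENO1, 15.6 for GPI and 15.2 for PFKM.

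Within the glutamine-free library the reads behind the 6 names could be ordered. These values are not divided by transcript length, so the order is one of reads and not of molecules. BSG had 1657 reads (95% exact Poisson interval 1578 to 1739) and was 29th of all names by value. PKM followed with 1392 reads (1320 to 1467) and was 39th. GAPDH had 1024 reads (962 to 1089), at rank 70. BSG had 1.19 times the reads of PKM (1.11 to 1.28), PKM 1.36 times those of GAPDH (1.25 to 1.48), and GAPDH 1.85 times those of ENO1 (1.67 to 2.06), so these 3 steps exceeded counting error. ENO1 had 553 reads (508 to 601), GPI 526 (482 to 573) and PFKM 512 (469 to 558), at ranks 192, 212 and 224. Among these last names the steps of 1.05 (0.931 to 1.19) and 1.03 (0.908 to 1.16) lay within counting error. The intervals for ratios are exact binomial intervals. They do not allow for the names having been ordered by these same reads.

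As shares of all listed reads, the 6 names together took 0.393% (95% Wilson interval 0.383 to 0.403%) of the glutamine-free library, 5664 reads in all. BSG took 0.115% (0.109 to 0.121%), PKM 0.0965% (0.0916 to 0.102%) and GAPDH 0.0710% (0.0668 to 0.0755%). In the glucose-free library the 6 names took 0.00467% (0.00128 to 0.0170%), which is the 2 reads of PKM. A share within a library needs no scale between libraries, but it does depend on which other rows were listed. The most abundant name, an unnamed locus, held much of the glutamine-free library, and without it the 6 names took 0.641% there and 0.00537% in the other.

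PKM allowed a comparison between the libraries on measured values, though on 2 reads. Its value was 436 times as high in the glutamine-free library (95% counting interval 120 to 3600), and its share of listed reads 20.7 times as high (5.71 to 171). Both intervals lie above 1, but both rest on the 2 reads and treat them as a plain random count. How reads were filtered is not stated, so the intervals are no test of a difference. Of the 393 names above 0 in the glucose-free library, 27, or 6.87%, had at most 2 reads. The median of those names was 81 reads.

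The 2 reads fell in 1 of the 9 PKM rows, and it was not a leading row. In the glutamine-free library the PKM rows, from highest to lowest, stood at 417, 406, 56.9, 51.4, 44.3, 38.0, 33.2, 31.6 and 22.9. The row above 0 in the glucose-free library was the fifth of these, at 2.55 there against 44.3, and the other 8 rows were listed at 0. For that row alone the share of listed reads was 0.831 times as high in the glutamine-free library (0.220 to 7.03), an interval that includes 1. At equal shares it would have had 1.66 reads where 2 were listed. The row was picked because it held these 2 reads, so neither value can tell whether its share was kept. The 2 largest PKM rows would have had 15.6 and 15.2 reads, where 0 were listed. The lower PKM total in the glucose-free library lay mostly in the 2 leading rows, which held most of the name's reads in the other library. PKM was not alone in having a different largest row in each library. Of 276 names above 0 in both libraries with at least 2 rows, the largest row was the same in both for 107, or 38.8%.

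PKM is known for a choice between mutually exclusive exons, which gives an adult muscle form and a form common in tumours and dividing cells. Its 2 largest rows had 527 and 513 reads, 37.9% (35.3 to 40.4%) and 36.9% (34.4 to 39.4%) of the name's reads. Their ratio of 1.03 (0.908 to 1.16) lay within counting error. Without identifiers, neither row can be assigned to an isoform. Each of the other 7 rows held between 2.08% and 5.17% of the reads.

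The remaining names were more concentrated, and for each the counting interval of the largest over the next row lay above 1. Rows were ordered by these same reads, which the intervals do not allow for. PFKM had 3 rows with a value, at 331, 58.5 and 15.8, and the first held 81.6% of its reads (78.1 to 84.8%). BSG had 5 rows, at 731, 411, 128, 27.7 and 13.4, with 55.8% (53.4 to 58.1%) in the largest. PFKM thus came closest to being carried by a lone row. GAPDH had 4 rows, at 411, 248, 149 and 1.56, with 50.8% (47.7 to 53.8%) in the largest. ENO1 had 4 rows, at 219, 161, 42.7 and 15.0, with 50.1% (45.9 to 54.2%) in the largest. The 5 rows of GPI stood at 195, 152, 48.2, 11.1 and 9.47, and the largest held 47.0% (42.7 to 51.2%). Largest over next row was 5.65 (4.40 to 7.33) for PFKM, 1.78 (1.60 to 1.99) for BSG and 1.66 (1.44 to 1.91) for GAPDH. It was 1.36 (1.13 to 1.64) for ENO1 and 1.29 (1.06 to 1.56) for GPI. Among 1990 names with 3 to 9 rows and a value above 0 in the glutamine-free library, the largest row held a median of 54.0% of reads, with quartiles of 44.4 and 67.6%. PFKM lay above and PKM below these quartiles, and the other 4 names lay between them.

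**Figure D2:**
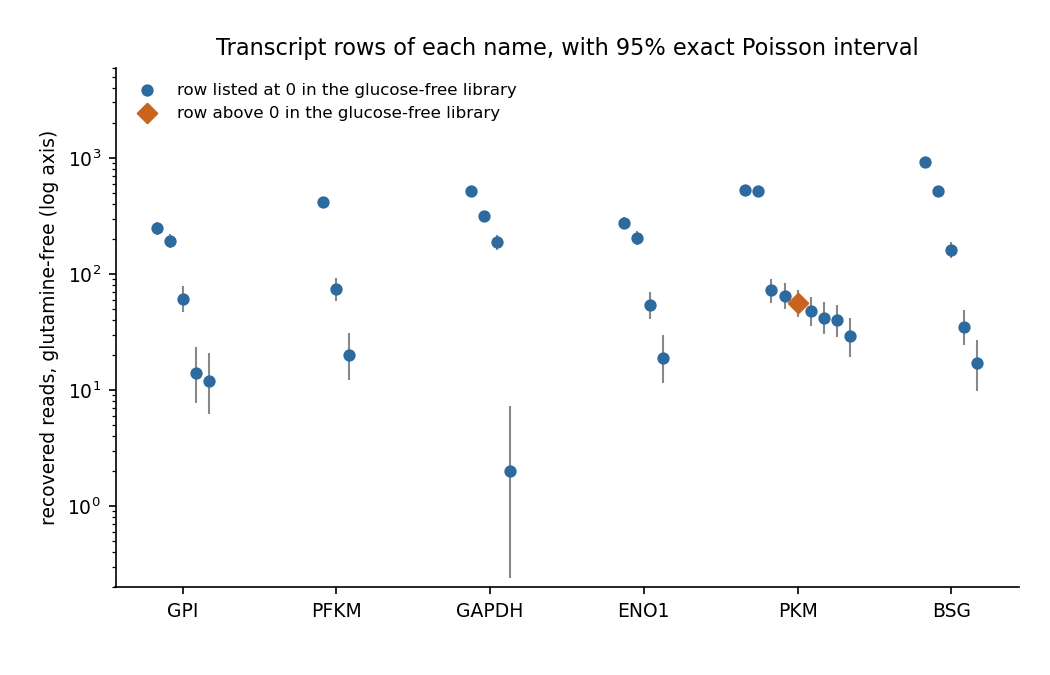
Recovered reads of each of the 30 transcript rows in the glutamine-free library (log axis), grouped by name and ordered by size, with 95% exact Poisson intervals as grey bars. The orange diamond, a PKM row with 56 reads, is the only row that was above 0 in the glucose-free library, and 13 blue rows with 100 or more reads were listed at 0 there.

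Seen by row, 1 of the 30 rows, or 3.33%, was above 0 in the glucose-free library, near the 2.54% of all rows. All 30 were above 0 in the glutamine-free library, as were 99.5% of all rows with a value. There were 13 rows with 100 or more reads there, none of them above 0 in the glucose-free library. Of all 1653 rows with 100 or more reads, 8.29% were. The files held 35 rows under the 6 names, of which 5 carried a mark in place of a number: 3 of PFKM, 1 of GPI and 1 of GAPDH. Every row of ENO1, PKM and BSG had a value. Over the whole files 20.3% of rows had one.

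**Figure D3:**
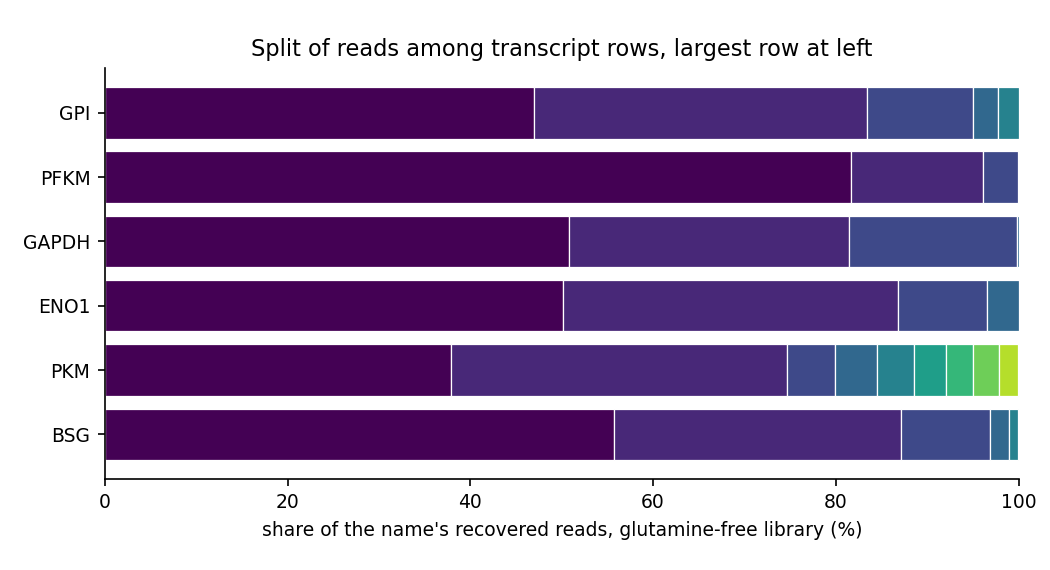
Share of each name's recovered reads (percent, horizontal) held by each of its transcript rows in the glutamine-free library, with the largest row at the left of each bar and 1 colour step per row. PFKM is carried mostly by its largest row at 81.6%, and PKM is split between rows of 37.9% and 36.9% with 7 small rows after them.

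The promoters of the 3 names with the most reads are shown as sequence context. These names were among the 70 highest in the glutamine-free library. Being at or near 0 in the glucose-free library does not link them, since only 4.25% of all names were above 0 there. Each is the 250 bases before a RefSeq start in GRCh38.p14, written 5′ to 3′ on the gene's strand. The capitals mark the E-box CACGTG, a site type bound by MYC and related factors, and the GC box GGGCGG, a site type bound by SP1, each on either strand. Of the 2 BSG entries the one holding an E-box is shown, and the files do not say from which start the rows came. All 3 printed windows lie inside the gene spans given above, each before a start that is not the outermost one.
BSG, chr19:572346-572595, plus strand: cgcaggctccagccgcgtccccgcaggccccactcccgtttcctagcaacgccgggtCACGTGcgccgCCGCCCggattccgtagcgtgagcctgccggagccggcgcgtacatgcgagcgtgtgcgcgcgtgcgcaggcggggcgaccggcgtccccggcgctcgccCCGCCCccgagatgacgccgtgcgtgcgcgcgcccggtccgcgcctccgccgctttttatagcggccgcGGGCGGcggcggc
PKM, chr15:72231191-72231440, minus strand: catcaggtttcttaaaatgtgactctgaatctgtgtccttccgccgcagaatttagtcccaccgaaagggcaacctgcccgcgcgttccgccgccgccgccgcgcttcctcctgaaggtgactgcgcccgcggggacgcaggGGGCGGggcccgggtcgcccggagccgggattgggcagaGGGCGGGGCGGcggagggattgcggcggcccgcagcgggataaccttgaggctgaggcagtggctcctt
GAPDH, chr12:6535014-6535263, plus strand: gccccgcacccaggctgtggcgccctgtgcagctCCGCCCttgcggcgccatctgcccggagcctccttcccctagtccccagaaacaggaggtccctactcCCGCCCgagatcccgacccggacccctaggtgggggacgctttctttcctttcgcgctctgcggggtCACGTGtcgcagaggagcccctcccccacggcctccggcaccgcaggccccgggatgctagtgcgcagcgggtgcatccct

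The table held 13 such windows for the 6 genes, 7 of them for PFKM, and several of those overlap. The GC box was present in 7 of the 13 windows, covering 5 of the 6 genes, and in 42.6% of all 35116 windows. BSG and PKM each had 3 matches in the windows shown, and GAPDH had 2. The E-box was present in 2 windows, those of BSG and GAPDH printed above, and in 6.34% of all windows. The shorter core ACGTG, a site type bound by hypoxia-inducible factors that is also contained in the E-box, was present in 4 windows, 1 each of BSG, GAPDH, GPI and PFKM, and in 18.5% of all windows. TATAAA was present in 2 of the 13 windows and in 10.7% of all. The 3 printed windows were 78.4%, 68.4% and 71.2% G and C, against a median of 58.0% over all windows. The BSG window not printed was 56.8% G and C and held none of these motifs. The GPI window was at 54.8%, that of ENO1 at 72.0%, and those of PFKM ran from 35.2% to 73.2%. A match is a run of letters and not a bound site, and the RNA values do not bear on any of these factors.

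Of 25 glycolytic enzyme names 12 had a value, and PKM was the 1 above 0 in the glucose-free library, against 4.25% of all names. Beside the 5 enzymes above these were HK1 at 3.15 and HK2 at 10.3 in the glutamine-free library, the hexokinases that trap glucose in the cell. They also were PFKL at 293 and PFKP at 52.2, the liver-type and platelet-type subunits of the same kinase as PFKM, ALDOA at 264, TPI1 at 68.8 and ENO2 at 7.89. PFKM had 1.38 times the reads of PFKL (1.21 to 1.59) and 7.76 times those of PFKP (5.99 to 10.2), again without regard to length. ENO1 had 55.3 times the reads of ENO2 (29.8 to 116). The 12 names had a median log2 ratio of 8.12, and all 12 passed 2-fold toward the glutamine-free library, as did 97.4% of all names.

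On the lactate side, 6 of 11 names had a value and none was above 0 in the glucose-free library. With 4.25% of all names above 0 there, this count does not set the 6 apart. Of the transporters that BSG accompanies, SLC16A3, which exports lactate, stood at 315 and SLC16A1 at 14.2 in the glutamine-free library. SLC16A3 had 22.1 times the reads of SLC16A1 (13.8 to 37.7). BSG itself had more reads than any other of this list. The lactate dehydrogenase names LDHA and LDHB stood at 194 and 21.3. NPTN, a relative of BSG, stood at 15.8. The median log2 ratio of these 6 was 6.04.

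Of the 44 glucose-handling names with a value in 7 lists, 4 were above 0 in the glucose-free library, or 9.09%, against 4.25% of all names. Besides PKM they were SLC2A3, PGM3 and UGP2. So few names do not set these lists apart, and the lists were chosen with earlier results of these data known. SLC2A3, a high-affinity glucose transporter, stood at 295 in the glucose-free and 547 in the glutamine-free library. SLC2A1 at 102 and SLC2A13 at 105 were seen in the latter alone. PGM3, an enzyme of hexosamine synthesis, stood at 147 and 67.9, and UGP2, which makes UDP-glucose, at 130 and 48.2. These last names were higher in the glucose-free library as deposited, at log2 ratios of -1.10 and -1.41, and at -5.48 and -5.80 after rescaling. For SLC2A3 the ratio was 0.89 as deposited and -3.50 after rescaling, so its direction depends on the scale. These 3 names had 233, 116 and 103 reads in the glucose-free library, far more than the 2 of PKM.

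No name of the pentose phosphate, pyruvate entry, fructose bisphosphate or regulator lists was above 0 in the glucose-free library. Of all names only 4.25% were above 0 there, so these counts do not set the lists apart. The pentose phosphate pathway had 5 of 8 names with a value, led by TKT at 379, TALDO1 at 218 and PGLS at 137 in the glutamine-free library. Entry of pyruvate into mitochondria had 6 of 14, led by DLAT at 74.3, PDHA1 at 32.4 and DLD at 20.5, all parts of the pyruvate dehydrogenase complex. Of 15 hexosamine and glycogen names 11 had a value, led by OGT at 3716, PYGB at 197 and PYGL at 98.0. In the fructose bisphosphate list PFKFB3 was the 1 of 7 with a value, at 45.1. Among 12 regulators of glycolytic genes 7 had a value. They were led by TXNIP, which limits glucose uptake, at 161, PRKAA1, a subunit of AMP-activated kinase, at 51.4, and HIF1A, a hypoxia-inducible factor, at 31.6.

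Of 6 factors known to act on the exclusive exons of PKM, 4 had a value. SRSF3 stood at 367 in the glucose-free and 225 in the glutamine-free library, with 290 and 285 reads. PTBP1, which represses the exon of the muscle form, stood at 0 and 425, HNRNPA2B1 at 0 and 349, and HNRNPA1 at 0 and 31.6. SRSF3 was thus the only splicing factor of this list seen in both libraries, and its log2 ratio was -0.70 as deposited and -5.09 after rescaling.

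**Figure D4:**
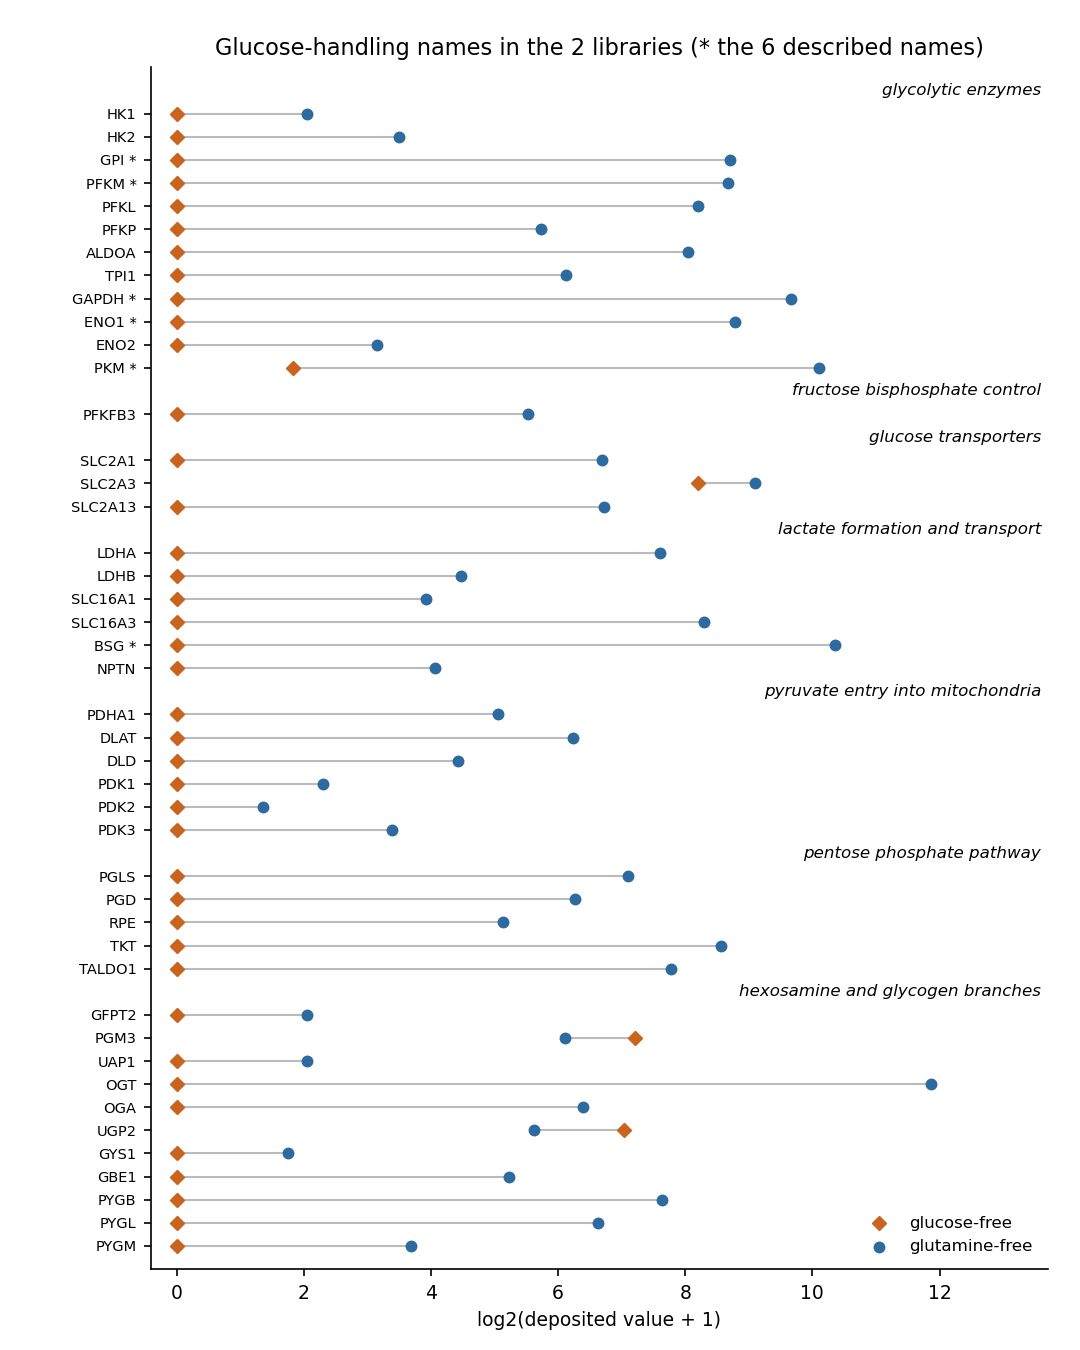
Deposited values as log2(value + 1) of the 44 glucose-handling names with a value, grouped by list, with orange diamonds for the glucose-free and blue circles for the glutamine-free library, and an asterisk on the 6 described names. Only PKM, SLC2A3, PGM3 and UGP2 have a diamond away from 0, and PGM3 and UGP2 are the names whose diamond lies to the right of the circle.

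Genes next to or opposite the 6 were also looked up. BSG-AS1, the antisense neighbour of BSG, had 6 rows in the files and none with a value. ENO1-AS1 and GAPDH-DT, transcribed away from ENO1 and GAPDH, had 1 row each, at 1.56 and 13.4 in the glutamine-free library and at 0 in the other. The counting is not stated to use strand.

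Among 5637 other protein-coding symbols, the name nearest to each of the 6 in log2(value + 1) over the 2 libraries was found. It was HMG20B at 416 for GPI, SETD5 at 400.1 for PFKM, RHOT2 at 812 for GAPDH, NOL3 at 437 for ENO1 and PKD1 at 1265 for BSG, all listed at 0 in the glucose-free library. For PKM it was CDH11, at 1.29 and 1448, at a distance of 0.75 on the log2 scale. The largest of the other distances was 0.051, for BSG. Likeness over 2 libraries, 1 of them mostly at 0, says no more than that the values in the glutamine-free library were close.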

How the data were processed

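The deposited files hold 1 value per transcript row and library. Per the file headers no unit is named, and the deposited values are not whole counts. The submitters' processing notes name HISAT2 2.0.5, StringTie and the build hg38, without roles; how reads were counted, filtered and scaled is not stated in the sources used here. A joint table repeated these values and was left aside.

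Rows marked "--" were left out and values under 1e-09 were set to 0. Reads were recovered by fitting an offset and a step to the low values. All 472 and 18536 values of up to 1000 reads were whole within 0.1 of a read. On a simulated pair of libraries of 18564 rows, built from an offset and a step without noise, this returned 100% of the reads. That checks only that the fit runs as intended, and neither simulated library was mostly at 0. Rows sharing a name were summed; all 9253 names passed a minimum of 1 in either library. The pseudocount was 1. Replicates do not exist, so no test was run. Named genes were all 6 names, each listed name above 0 in the glucose-free library, the 3 highest of each other list and the nearest name to each of the 6; all glycolytic and lactate names with a value are also given. The names and the 11 other lists were chosen with earlier results of these data known. A few list entries are not reported here and were left out of the list counts. Promoters came from RefSeq. Python 3.11.15, pandas 2.3.3, NumPy 2.4.6 and SciPy 1.17.1 were used. Alternatives tried are named in the closing section.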

Additional observations from a re-analysis of the deposited data

How the results depend on the processing

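The count of 6 names past 2-fold toward the glutamine-free library was the same under rescaling to 1000000, centring of the ratios, a pseudocount of 0.1, no minimum, a minimum of 5, the largest row per name and a 4-fold threshold; over all names the share fell to 31.5% under centring and was 90.7% or more otherwise. For the 5 names at 0 in the glucose-free library, the centred count follows from their high values in the glutamine-free library. With at least 3 reads required in the glucose-free library, the 1 name and the 1 row above 0 there became 0 and 0. With the largest row in place of the sum, values in the glutamine-free library were 195 for GPI, 331 for PFKM, 411 for GAPDH, 219 for ENO1, 417 for PKM and 731 for BSG. After rescaling they were 365, 355, 710.0, 383, 965 and 1149 in the same order, and PKM in the glucose-free library was at 47.1; here the new scale or the smaller sum sets the change. Leaving out the most abundant name, which makes the denominator smaller, moved the share of the 6 names in the glutamine-free library to 0.641%. No paired analysis was possible because each condition has 1 library. For PKM, the comparison across the libraries rests on 2 reads in the glucose-free library.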
